A study of Arabidopsis thaliana with 21 samples.

Results

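The cold-regulated COR, KIN and dehydrin genes described here are 10 Arabidopsis thaliana genes chosen by name from 32548 genes in the deposited table: COR15A, COR15B, COR47, ERD10, LTI30, KIN1, KIN2, RD29A, RD29B and GolS3. All 10 had a mean of at least 1 over the libraries and entered the fit across 23290 genes. They were measured by RNA sequencing in plants homozygous for gcn5, ada2b-c, ada2a or spc, in 2 double mutants, ada2b-cada2a and ada2b-cspc, and in wild-type Col-0, with 3 libraries for each of the 7 genotypes. All plants were 30 days old, first 12 days on MS plates and then in soil, in 16 h light and 8 h dark at 22 °C, and no cold treatment is named. What kind of allele each line carries, what the c in ada2b-c stands for and which gene spc names were not given in the sources used here.

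Arabidopsis makes COR, KIN and dehydrin proteins when it is exposed to cold, drought or abscisic acid. Most of them are very hydrophilic proteins that protect membranes and enzymes during freezing and dehydration. In the cold the CBF (DREB1) transcription factors are induced first and bind the CRT/DRE element, whose core is CCGAC, in the promoters of their targets. Abscisic acid acts on many of the same genes through ABF factors, which bind the ABRE, whose core is ACGTG. GCN5 is a histone acetyltransferase, ADA2A and ADA2B are alternative adaptor proteins that work with it, and both GCN5 and ADA2 proteins have been reported to bind CBF1.

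The deposited values carry the authors' normalization and are called signal here, so the depth behind a value is not known and counting error cannot be stated. The labels do not state whether the 3 libraries of each genotype were grown or extracted separately. The p-values therefore describe only how far these libraries spread, which may be technical. Libraries differed by transcript length: the slope of their deviations from gene means, on the log2 scale per doubling of length, averaged -0.15 ± 0.44 in gcn5 libraries and 1.01 ± 0.05 in those of ada2b-c (SD, n = 3 each). It was -1.0 ± 0.25 for ada2a, -1.11 ± 0.37 for spc, 0.79 ± 0.13 for ada2b-cada2a, 0.86 ± 0.08 for ada2b-cspc and -0.40 ± 0.21 for Col-0. Each change was therefore also computed after a spline over transcript length and GC content was subtracted from every library (the length correction) and with each library's length slope in the fit (the length covariate). Slopes of ada2b-c, both double mutants, ada2a and spc did not overlap those of Col-0, so the covariate separates slope from genotype poorly there. A call lost with the covariate may reflect a less precise estimate as well as length, and which of them was not tested. The plants are labelled seedlings, yet 7 floral identity genes were present. Their summed signal was 494 to 683 for gcn5 libraries, 80.8 to 93.8 for ada2b-c (where AG was at 0), 2217 to 2342 for ada2a, 2586 to 2780.5 for spc, 263 to 286 for ada2b-cada2a, 169 to 193 for ada2b-cspc and 995 to 1282 for Col-0. Seed storage and oil body genes summed to at most 12.2 in any library. As a check of the labels, GCN5 stood at 275 ± 14.9 in gcn5 and 372 ± 51.0 in Col-0, ADA2B at 583 ± 27.4 in ada2b-c and 494 ± 213 in Col-0, and ADA2A at 32.0 ± 22.1 in ada2a and 66.9 ± 21.3 in Col-0 (SD, n = 3 each). None of these 3 differences passed the test from the signal as deposited. That of ADA2A in ada2a passed under 6 of 18 alternatives (with equal totals -1.54, adjusted p = 0.017), and that of GCN5 passed with the length covariate (-0.51, adjusted p = 0.0273). With that covariate ADA2B was called lower in ada2b-c (-2.27, limma, adjusted p = 0.000166), against a difference of 0.32 from the signal as deposited. ADA2A fell by 4.11 on the log2 scale in ada2b-cada2a (limma, adjusted p = 3.88e-07). In ada2b-c ADA2A rose to 816 ± 34.2, a log2 change of 3.64 (adjusted p = 1.25e-06).

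Of the 10 genes, 8 lie in 4 tandem pairs with no annotated gene between the partners, in TAIR10.1 coordinates. COR15A (AT2G42540, chr2:17710441-17712330) and COR15B (AT2G42530, chr2:17708593-17710433) encode cryoprotective proteins of the chloroplast stroma and lie 7 bp apart on the minus strand. The dehydrin genes COR47 (AT1G20440, chr1:7084409-7086873) and ERD10 (AT1G20450, chr1:7087903-7089606) lie 1029 bp apart, also on the minus strand. KIN1 (AT5G15960, chr5:5209717-5210826) and KIN2 (AT5G15970, chr5:5211719-5212743) encode small hydrophilic proteins and lie 892 bp apart on the plus strand. RD29B (AT5G52300, chr5:21237021-21239531) lies 1185 bp before RD29A (AT5G52310, chr5:21240717-21243644) on the plus strand. LTI30 (AT3G50970, chr3:18940643-18941611), a dehydrin gene with 1 exon, and GolS3 (AT1G09350, chr1:3019639-3021443), which encodes a galactinol synthase for the first step of raffinose synthesis, stand alone. KIN1 and KIN2 transcripts are 91.7% identical over 505 aligned bp, so their reads may have been divided between them in counting. COR15B overlaps AT2G42520 on the opposite strand, and whether counting used strand is not given in the sources used here, so its level is uncertain.

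In Col-0 plants these genes spanned a wide range of signal per kilobase of transcript. KIN2 was highest, at 32041 ± 9656 per kb, and RD29B lowest, at 2.53 ± 2.17 per kb (SD, n = 3). Between them, COR15A stood at 6013 ± 1519, COR47 at 5061 ± 882.5, ERD10 at 4529 ± 460.3 and COR15B at 3604 ± 600 per kb. LTI30 (936 ± 177), RD29A (770.3 ± 219.8), GolS3 (502 ± 13.7) and KIN1 (190.0 ± 59.9) were lower. Neighbours in this order from COR15A to COR15B differed by less than the sum of their SDs, as did LTI30 and RD29A.

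**Figure D1:**
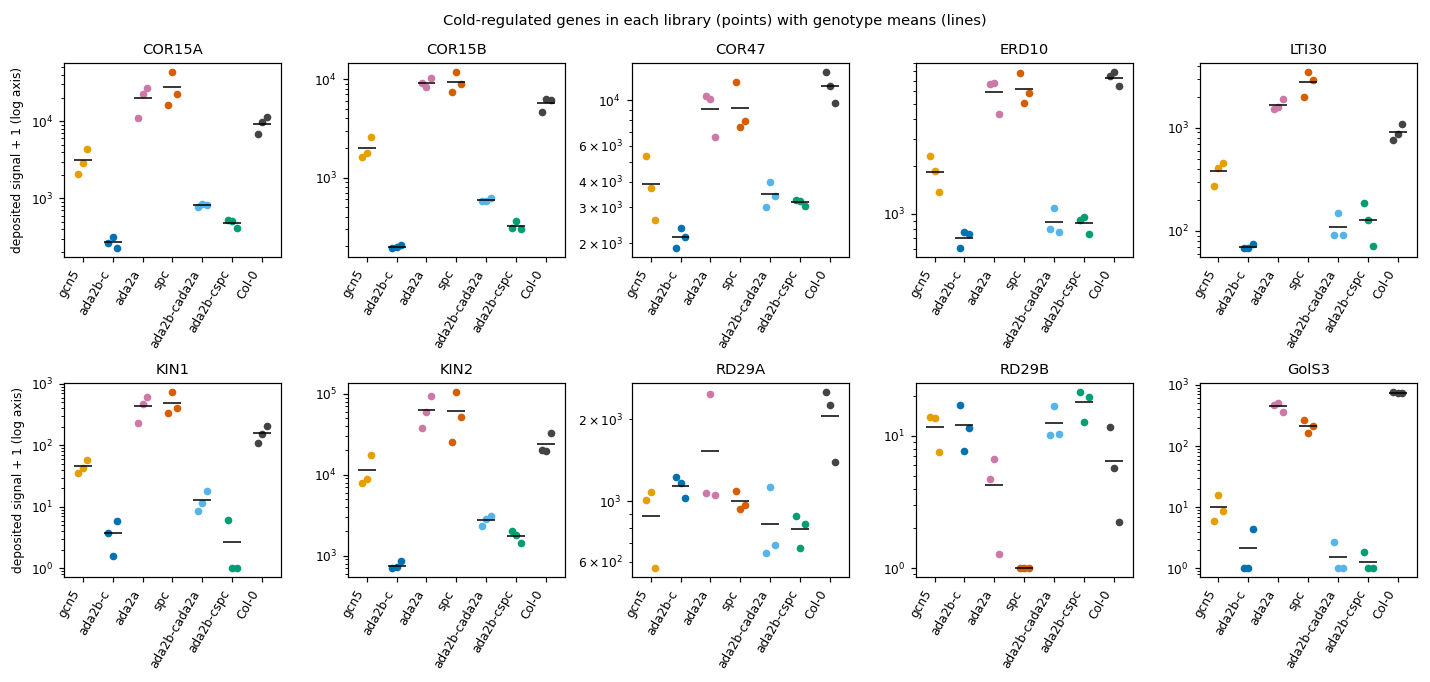
Deposited signal plus 1 on a log axis for each of the 10 cold-regulated genes, with 1 point for each library and a line at the mean of each genotype, mutants on the left and Col-0 on the right. The 3 genotypes with ada2b-c lie lowest for 8 genes, RD29A varies less, and RD29B runs the other way, from 11.8 to 20.4 in ada2b-cspc against 1.24 to 10.6 in Col-0.

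In ada2b-c plants 9 of the 10 genes fell, where 33.6% of all genes tested were called lower and 32.4% higher. The libraries of both genotypes did not overlap for these 9, as for 77.8% of all genes. The median log2 change of the 10 genes was -4.26, against -0.06 for all genes. GolS3 was nearly lost, the COR15 and KIN genes kept a few percent of their Col-0 level, and RD29B was the gene that did not fall. In plants as a whole, fewer cells of a type and less RNA per cell cannot be told apart. All 7 floral genes were lower too, and the part of that difference and of the length slope in these falls was not tested beyond the length settings given below.

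GolS3 had a signal of 0, 0 and 3.46 in ada2b-c libraries and 764, 723 and 745.5 in Col-0 libraries. Its log2 change was -8.82 ± 0.54 (SE, limma, adjusted p = 3.18e-11), and the groups were far apart. COR15A had 267, 316 and 225 in ada2b-c and 6754, 9712 and 11387 in Col-0. COR15B had 190.5, 197 and 203.5 in ada2b-c and 4615, 6323 and 6189.8 in Col-0. Both COR15 genes were thus at about the same fraction of wild type, 2.90% for COR15A and 3.45% for COR15B, with log2 changes of -5.08 ± 0.34 (adjusted p = 1.14e-10) and -4.84 ± 0.19 (adjusted p = 6.1e-14). KIN2 had 696, 715 and 849 in ada2b-c and 20248, 19463 and 32381 in Col-0. KIN1, far lower in every genotype, had 2.83, 0.601 and 4.99 in ada2b-c and 110, 153 and 209 in Col-0. The log2 changes of the KIN genes were -4.96 ± 0.39 (KIN2, adjusted p = 1.5e-09) and -5.53 ± 0.62 (KIN1, adjusted p = 1.53e-07).

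The 3 dehydrin genes among the 10 fell by smaller amounts than the COR15 and KIN genes in ada2b-c from the signal as deposited, an order that did not hold with the length covariate (ERD10 -4.62 and COR47 -4.03, against COR15A -2.92 and KIN2 -2.22). Each fell beyond the spread between libraries. ERD10 had 605, 769 and 746 in ada2b-c and 7494, 7942 and 6491 in Col-0. Its partner COR47 had 1885, 2361 and 2152 in ada2b-c and 13779.6, 11758.5 and 9685 in Col-0. LTI30 had 66.8, 66.9 and 73.8 in ada2b-c and 755, 872 and 1093 in Col-0. No library of one genotype reached the range of the other for any of the 3, and their log2 changes were -3.37 ± 0.22 (ERD10, adjusted p = 8.75e-11), -2.45 ± 0.24 (COR47, adjusted p = 3.06e-08) and -3.68 ± 0.30 (LTI30, adjusted p = 2.51e-09).

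RD29A, an LTI78-type hydrophilic protein gene often used as a reporter of cold and drought signalling, had 1221, 1162 and 1024 in ada2b-c and 2511.5, 2249 and 1393 in Col-0. This fall of 0.81 ± 0.31 on the log2 scale was the smallest of the 9 and just passed (adjusted p = 0.0262). The size of the RD29A fall depended on how transcript length and scale were handled: it fell by 2.08 after the length correction (adjusted p = 3.41e-08) and by 2.25 with the length covariate (adjusted p = 0.000585). With every library scaled to the same total the RD29A difference was -0.27 (adjusted p = 0.47). It also did not pass without ada2b-c replicate 2 or 3 or without Col-0 replicate 1 or 2 (adjusted p = 0.0507 to 0.111). RD29B, its abscisic-acid-responsive neighbour, had 16.1, 6.73 and 10.4 in ada2b-c and 10.6, 4.67 and 1.24 in Col-0, which overlap (log2 difference 1.12 ± 0.62, adjusted p = 0.118). RD29B was called higher with equal totals (1.60, adjusted p = 0.0244) and without Col-0 replicate 1 (1.68, adjusted p = 0.0282).

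Among the other 8 genes every fall in ada2b-c passed after the length correction and with the covariate, although sizes shifted. COR15A fell by 3.93 after the correction and by 2.92 with the covariate, and KIN2 by 3.29 and 2.22. LTI30 fell by 1.87 after the correction, and COR47 by 4.03 with the covariate. For GolS3 the values were -8.56 and -8.92, close to that from the signal as deposited. The plot of changes under the length settings shows these values with those of the other single mutants.

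**Figure D2:**
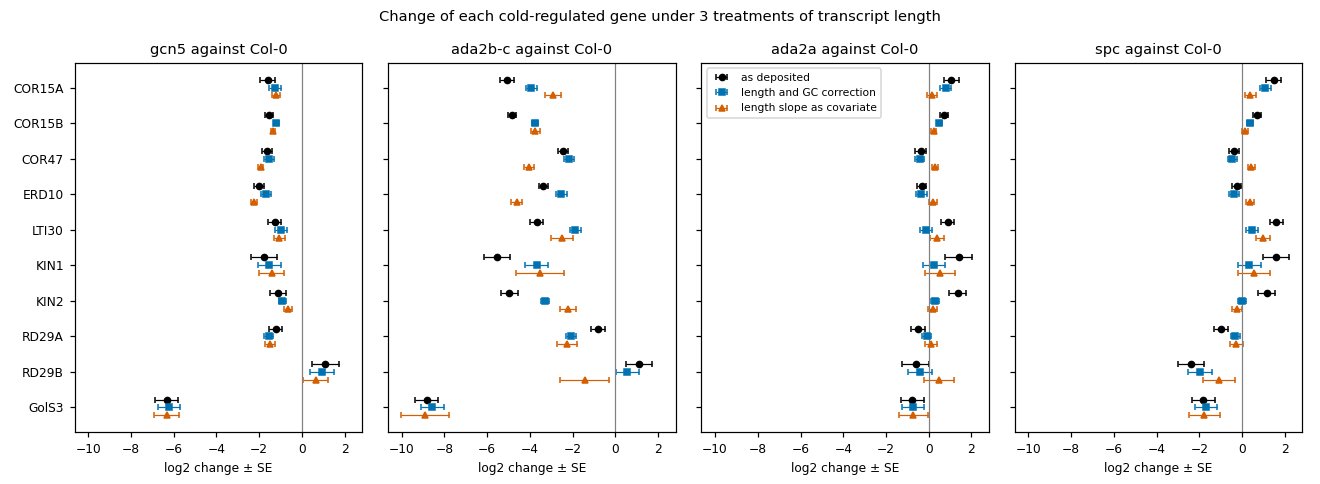
Log2 change ± SE of each of the 10 genes in gcn5, ada2b-c, ada2a and spc against Col-0, from the signal as deposited (circles), after the length and GC correction (squares) and with the length covariate (triangles). In ada2b-c COR15A moves between -5.08 and -2.92 and RD29A between -0.81 and -2.25, and in ada2a and spc most positive changes shrink toward 0.

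In gcn5 plants the same 9 genes were called lower and none higher, where 18.7% of all genes were called lower and 15.6% higher. Libraries did not overlap for these 9, against 41.8% of all genes. The median log2 change of the 10 genes was -1.57, against 0 for all genes. GolS3 had 4.96, 14.7 and 7.60 in gcn5 and 764, 723 and 745.5 in Col-0, or 1.22% of the Col-0 mean (log2 change -6.32 ± 0.54, limma, adjusted p = 1.97e-08). The other 8 genes that fell kept between 25.4% (ERD10) and 47.8% (KIN2) of their Col-0 means.

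COR15A had 2089.7, 2877 and 4421 in gcn5 and 6754, 9712 and 11387 in Col-0, and COR15B had 1612, 1756 and 2573 in gcn5 and 4615, 6323 and 6189.8 in Col-0. Their changes of -1.60 ± 0.34 (COR15A, adjusted p = 0.000971) and -1.54 ± 0.19 (COR15B, adjusted p = 2.55e-06) were nearly equal, as in ada2b-c. The dehydrin gene ERD10 had 2318, 1870.3 and 1375 in gcn5 and 7494, 7942 and 6491 in Col-0, and COR47 had 5367, 3737 and 2585 in gcn5 and 13779.6, 11758.5 and 9685 in Col-0. ERD10 fell by 2.01, COR47 by 1.64 and LTI30 by 1.28, so the changes of the COR15 genes lay among those of the dehydrin genes. RD29A fell by 1.23 ± 0.31 (adjusted p = 0.00412), with 1005, 1079 and 566 in gcn5 and 2511.5, 2249 and 1393 in Col-0. KIN1 (-1.78, adjusted p = 0.0304) and KIN2 (-1.12, adjusted p = 0.0327) depended on the libraries and settings used. Of 18 alternatives, 11 kept the call of KIN1 (changes of -2.01 to -1.42) and 14 that of KIN2 (-1.48 to -0.64). Those under which KIN1 did not pass included equal totals (adjusted p = 0.064) and a pseudocount of 0.1 (adjusted p = 0.202). They also included leaving out gcn5 replicate 1 or 2 or Col-0 replicate 2 or 3 (adjusted p = 0.068 to 0.109). For KIN2 they included leaving out gcn5 replicate 1 or 2 or Col-0 replicate 3 (adjusted p = 0.116 to 0.144). Of the 7 floral genes 3 were lower in gcn5, and their part in these falls was not tested.

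ada2b-c plants were lower than gcn5 plants for 8 of the 10 genes and higher for none, where 29.8% of all genes were called lower and 28.5% higher. The largest of these differences were in KIN2 (-3.84 ± 0.39, limma, adjusted p = 1.81e-07), KIN1 (-3.75 ± 0.62, adjusted p = 3.67e-05), COR15A (-3.48 ± 0.34, adjusted p = 9.41e-08) and COR15B (-3.29 ± 0.19, adjusted p = 8.04e-11). LTI30 followed with -2.40 and GolS3 with -2.50, then ERD10 with -1.37 and COR47 with -0.81. COR47 did not pass with equal totals (-0.51, adjusted p = 0.155) or without gcn5 replicate 1 (-0.55, adjusted p = 0.056), and KIN1 did not pass with the length covariate (-2.10, adjusted p = 0.112). RD29A averaged 1136 ± 101 in ada2b-c and 883 ± 277 in gcn5 (SD, n = 3 each), which overlap, with a log2 difference of 0.41 (adjusted p = 0.264) that turned to -0.52 after the length correction (adjusted p = 0.0487). This comparison shares its ada2b-c libraries and its gcn5 libraries with the comparisons to Col-0 above.

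**Figure D3:**
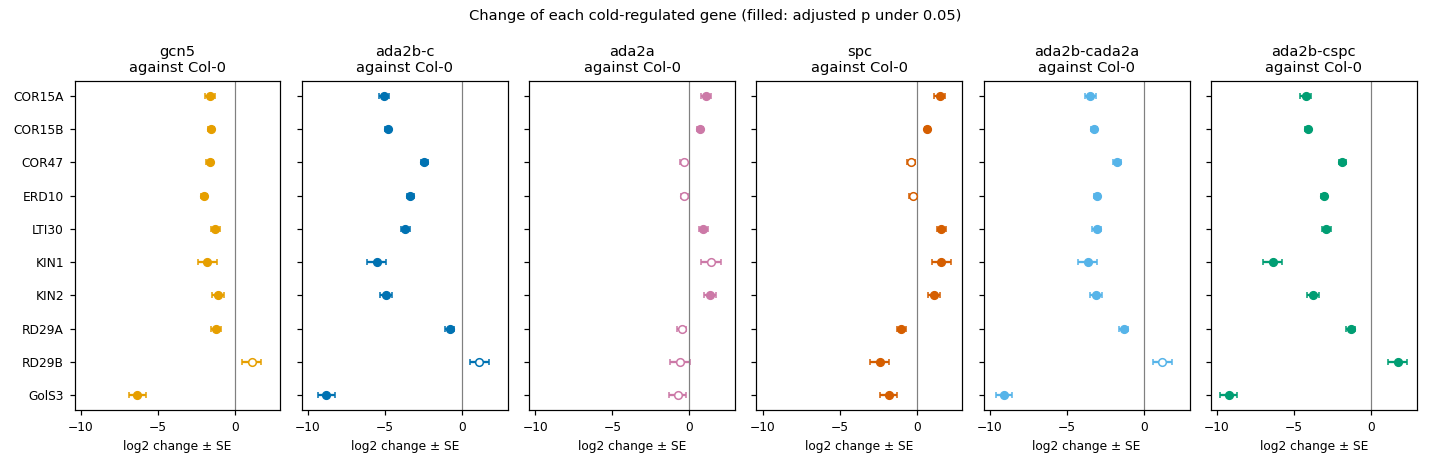
Log2 change ± SE of each of the 10 genes in 6 mutants against the shared Col-0 libraries. Filled points passed at an adjusted p under 0.05. GolS3 is farthest left in gcn5 (-6.32) and the 3 genotypes with ada2b-c (-8.82 to -9.25), and RD29B is right of 0 in the same 4 panels but filled only in ada2b-cspc.

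The upstream sequence of the 10 genes was searched for the motifs of the factors named above. In the 250 bases before the annotated start, on both strands, the CRT/DRE core CCGAC occurred in 5 of the 10 genes and at least 2 times in 4 of them, against 12.0% and 1.46% of 27443 promoters of protein-coding genes. The ABRE core ACGTG occurred in 5 of 10, against 22.9% of promoters, and the evening element AATATCT in KIN1 alone, against 10% of promoters. The 5 sequences with a CRT/DRE core are shown because they hold the site that CBF factors bind. They are RefSeq TAIR10.1 sequence, 5′ to 3′ on the strand of the gene and ending at the base before the annotated start, with CCGAC or its complement GTCGG and ACGTG or its complement CACGT in capitals. The windows are chr2:17712331-17712580 (minus strand) for COR15A, chr3:18940393-18940642 (plus) for LTI30, chr5:21240467-21240716 (plus) for RD29A, chr5:21236771-21237020 (plus) for RD29B and chr1:3019389-3019638 (plus) for GolS3.
COR15A: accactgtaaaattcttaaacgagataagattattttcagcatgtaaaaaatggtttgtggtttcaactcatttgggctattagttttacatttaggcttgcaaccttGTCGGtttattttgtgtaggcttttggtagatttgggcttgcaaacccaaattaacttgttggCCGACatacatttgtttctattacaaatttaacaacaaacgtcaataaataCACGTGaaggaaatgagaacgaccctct
LTI30: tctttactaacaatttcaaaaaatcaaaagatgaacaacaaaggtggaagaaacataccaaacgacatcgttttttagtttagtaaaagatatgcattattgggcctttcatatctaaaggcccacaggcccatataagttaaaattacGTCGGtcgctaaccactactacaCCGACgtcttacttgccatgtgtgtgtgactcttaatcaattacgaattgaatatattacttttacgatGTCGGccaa
RD29A: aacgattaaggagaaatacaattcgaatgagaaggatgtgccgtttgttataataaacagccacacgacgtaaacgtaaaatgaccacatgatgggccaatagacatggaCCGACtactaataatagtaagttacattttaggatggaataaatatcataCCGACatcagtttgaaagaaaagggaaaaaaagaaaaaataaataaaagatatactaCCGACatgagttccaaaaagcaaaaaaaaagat
RD29B: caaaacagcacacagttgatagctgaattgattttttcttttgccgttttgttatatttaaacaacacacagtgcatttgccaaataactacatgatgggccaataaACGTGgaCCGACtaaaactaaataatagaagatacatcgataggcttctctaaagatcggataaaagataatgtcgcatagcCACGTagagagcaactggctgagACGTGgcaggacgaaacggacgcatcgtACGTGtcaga
GolS3: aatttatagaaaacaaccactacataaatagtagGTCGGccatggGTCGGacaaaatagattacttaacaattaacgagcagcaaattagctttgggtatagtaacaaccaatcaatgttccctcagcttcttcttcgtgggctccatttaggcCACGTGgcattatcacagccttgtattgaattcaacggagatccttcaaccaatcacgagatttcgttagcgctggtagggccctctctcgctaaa

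COR15A has CCGAC cores whose first bases lie 142 and 79 bases before the start, and 2 ACGTG cores that overlap in a single CACGTG. LTI30 has 3 CCGAC cores and no ACGTG, as has RD29A, whose cores begin 140, 90 and 33 bases before the start. RD29B is the reverse, with 4 ACGTG cores and 1 CCGAC, and GolS3 has 2 of each, its ACGTG cores again overlapping in CACGTG. KIN1 and KIN2 have 1 ACGTG each, and COR15B, COR47 and ERD10 have no match to the 3 motifs in this window. Because COR15A and COR15B lie 7 bp apart, nearly all of the COR15B window lies within the COR15A gene. A match is only a run of letters, and no match says nothing of sites farther upstream.

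In ada2a plants 4 of the 10 genes rose and none fell, where 19.8% of all genes were called higher and 19.9% lower. Libraries did not overlap for 5 of the 10, against 49.2% of all genes. The median log2 change of the 10 genes was 0.18, against -0.02 for all genes. The genes that rose were COR15A, COR15B, LTI30 and KIN2. In spc plants these 4 and KIN1 rose, while RD29A, RD29B and GolS3 fell, where 21.7% of all genes were called higher and 25.7% lower. Libraries did not overlap for 7 of the 10 in spc, against 51.7% of all genes, and the median change was 0.22, against -0.06. Of the 7 floral genes 3 were higher in ada2a and 4 in spc, and length slopes were the most negative of all genotypes. The part of the floral difference in these rises was not tested.

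KIN2 had 38289, 59467 and 94165 in ada2a, 25550.3, 105477 and 51467 in spc, and 20248, 19463 and 32381 in Col-0. COR15A had 10887, 22780.5 and 27132 in ada2a, 16439, 43687 and 22605 in spc, and 6754, 9712 and 11387 in Col-0. LTI30 had 1530, 1598 and 1892 in ada2a, 1980.1, 3483 and 2913.5 in spc, and 755, 872 and 1093 in Col-0. LTI30 was above Col-0 in all 3 libraries of each mutant, whereas 1 ada2a library overlapped Col-0 for COR15A and 1 spc library for KIN2. As deposited, KIN2 rose by 1.36 ± 0.39 in ada2a (limma, adjusted p = 0.0119) and 1.15 ± 0.39 in spc (adjusted p = 0.0233), COR15A by 1.06 and 1.48, LTI30 by 0.89 and 1.60, and COR15B by 0.70 in each. KIN1 rose by 1.59 in spc (adjusted p = 0.0397) and differed by 1.40 in ada2a (adjusted p = 0.0744).

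These rises depended on how transcript length was handled. With the length covariate none of the 4 rises in ada2a passed (adjusted p = 0.237 to 0.726), and in spc 1 of 5 passed, that of LTI30 (1.0, adjusted p = 0.0486). After the length correction COR15A and COR15B still passed in ada2a (0.80 and 0.50) and in spc (1.08 and 0.37), but LTI30 did not (-0.13 in ada2a, 0.46 in spc). Nor did KIN2 (0.30 in ada2a, 0.01 in spc) or, in spc, KIN1 (0.34). Without Col-0 replicate 1, none of the 4 rises in ada2a passed (adjusted p = 0.0504 to 0.104), and neither KIN gene passed in spc. COR15A and LTI30 also did not pass in ada2a without ada2a replicate 2 or 3, KIN2 without ada2a replicate 3, and both KIN genes in spc without spc replicate 2 or 3 or without Col-0 replicate 2. With equal totals the rises of COR15B (0.32, adjusted p = 0.151) and LTI30 (0.52, adjusted p = 0.143) in ada2a did not pass, and COR47, ERD10 and RD29A were called lower there.

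GolS3 had 268, 160.4 and 214 in spc and 764, 723 and 745.5 in Col-0, a fall of 1.82 ± 0.54 on the log2 scale (limma, adjusted p = 0.0105) with no overlap. The GolS3 fall kept its size after the length correction (-1.69, adjusted p = 0.015) and with the covariate (-1.77), where it did not pass (adjusted p = 0.112), nor without spc replicate 2 (-1.63, adjusted p = 0.0509). Its call held under 12 of 16 alternatives, and the highest adjusted p under any of the 16 was 0.222. In ada2a GolS3 had 473, 498 and 359.5, all below Col-0, with a log2 difference of -0.76 that missed the threshold (adjusted p = 0.271). RD29A had 1090, 939 and 970.4 in spc and 2511.5, 2249 and 1393 in Col-0, which is 0.99 lower on the log2 scale (adjusted p = 0.0137). RD29A was not called lower after the correction (-0.31) or with the covariate (-0.27), nor without Col-0 replicate 1 or 2 (adjusted p = 0.0726 and 0.0515). RD29B was listed at 0 in all 3 spc libraries, against 10.6, 4.67 and 1.24 in Col-0. The call on RD29B (adjusted p = 0.00457) did not hold with the covariate (adjusted p = 0.353). The dehydrin pair did not pass in either mutant: COR47 averaged 9091 ± 2153 in ada2a, 9217 ± 2706 in spc and 11741 ± 2047.5 in Col-0, and ERD10 averaged 5906 ± 1377 in ada2a, 6206 ± 1444 in spc and 7309 ± 743 in Col-0 (SD, n = 3 each). The 95% intervals of the log2 difference were -0.89 to 0.12 in ada2a and -0.88 to 0.13 in spc for COR47, and -0.79 to 0.13 and -0.72 to 0.21 for ERD10.

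Both double mutants resembled ada2b-c in the direction of each gene. In ada2b-cada2a 9 genes were lower than in Col-0 and none higher, where 32.1% of all genes were called lower and 30.4% higher, with a median log2 change of -3.09. In ada2b-cspc 9 were lower and 1, RD29B, higher, where 33.3% and 31.4% were called, with a median of -3.41. GolS3 had 1.67, 0 and 0 in ada2b-cada2a and 0.825, 0 and 0 in ada2b-cspc. With the covariate the fall of KIN1 in ada2b-cada2a did not pass (-1.97, adjusted p = 0.122). All 7 floral genes were lower in both doubles, and their part in these falls was not tested.

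Set against their other parent, the doubles fell in most genes. Between ada2b-cada2a and ada2a the call was lower for 9 genes and higher for RD29B, where 38.1% and 37.9% of all genes were called, and the median change was -3.96. COR15A averaged 811 ± 41.8 in ada2b-cada2a and 20267 ± 8409 in ada2a (SD, n = 3 each; log2 change -4.54, limma, adjusted p = 6.57e-10). Between ada2b-cspc and spc 8 genes were lower and RD29B higher, where 39.1% and 38.4% were called, and the median change was -4.67. COR15A averaged 479 ± 61.6 in ada2b-cspc and 27577 ± 14288 in spc (log2 change -5.73, adjusted p = 2.34e-11). RD29A was the remaining gene, at 792 ± 109 in ada2b-cspc and 999.8 ± 79.8 in spc (log2 difference -0.34, adjusted p = 0.317), which became -2.26 after the length correction (adjusted p = 8.91e-09). With the covariate KIN2 did not pass in either comparison (-0.99 and -1.05, adjusted p = 0.103 and 0.11), nor did KIN1 against ada2a (-2.52, adjusted p = 0.192), while the other 7 falls did in each case. The rise of RD29B against spc did not pass with the covariate either (0.56, adjusted p = 0.822). The RD29B rise against ada2a (1.80, adjusted p = 0.0123) did not pass after the correction (1.08, adjusted p = 0.0967), without ada2a replicate 3 (1.09, adjusted p = 0.109) or without ada2b-cada2a replicate 2 (1.57, adjusted p = 0.0519). RD29A's fall against ada2a (-0.82, adjusted p = 0.0211) did not pass with equal totals (-0.01), without ada2a replicate 2 (-0.42, adjusted p = 0.198) or without ada2b-cada2a replicate 1 or 3, nor did that of COR47 with equal totals (-0.56, adjusted p = 0.0932).

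Against ada2b-c itself, ada2b-cada2a was higher for 4 genes and lower for none, where 9.45% of all genes were called higher and 6.2% lower. Libraries did not overlap for 7 of the 10, against 52.2% of all genes. Of the floral genes 6 of 7 were higher in ada2b-cada2a too, and their part in these rises was not tested. COR15A had 765, 846 and 823 in ada2b-cada2a and 267, 316 and 225 in ada2b-c. COR15B had 579.5, 580.2 and 617 in ada2b-cada2a and 190.5, 197 and 203.5 in ada2b-c. KIN2 had 2298.5, 2843.5 and 3057 in ada2b-cada2a and 696, 715 and 849 in ada2b-c. In all 3 genes every double-mutant library was above every ada2b-c library, by about the same factor, with log2 changes of 1.60 ± 0.34 (COR15A, limma, adjusted p = 0.00285), 1.58 ± 0.19 (COR15B, adjusted p = 1.11e-05) and 1.85 ± 0.39 (KIN2, adjusted p = 0.00292). They passed after the length correction (1.46, 1.46 and 1.54) and with the covariate (1.26, 1.41 and 1.42). KIN1 also passed (1.87, adjusted p = 0.0437), from 7.48, 10.5 and 17.3 in ada2b-cada2a and 2.83, 0.601 and 4.99 in ada2b-c, but not without any 1 of the 6 libraries except ada2b-c replicate 3 (adjusted p = 0.0552 to 0.22). COR47 differed by 0.69 (adjusted p = 0.0571), and with the covariate COR47 (0.95, adjusted p = 3.87e-06) and ERD10 (0.52, adjusted p = 0.00648) were called higher as well. From the signal as deposited, for ERD10 the 95% interval of the log2 difference was -0.14 to 0.78, for LTI30 -0.02 to 1.25, for RD29A -1.16 to 0.13 and for GolS3 -1.37 to 0.88.

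In ada2b-cspc against ada2b-c COR15B alone was called higher, where 5.88% of all genes were called higher and 3.29% lower. COR15B had 309, 359.7 and 301 in ada2b-cspc and 190.5, 197 and 203.5 in ada2b-c, a rise of 0.71 ± 0.19 on the log2 scale (limma, adjusted p = 0.0212) that did not pass when any ada2b-c library, or ada2b-cspc replicate 1 or 2, was left out (adjusted p = 0.0558 to 0.106). COR15A (0.83, adjusted p = 0.144) and KIN2 (1.21, adjusted p = 0.0598) were higher in all 3 double-mutant libraries without passing. KIN2 passed after the length correction (0.98, adjusted p = 0.000599), and both COR15A and KIN2 passed with the covariate. Whether the change brought by ada2b-c differed between backgrounds was tested as well, and passed for 2 of the 10 genes in ada2b-cada2a, where 13.3% of all genes were called, and for 1 in ada2b-cspc, where 10.7% were. They were COR15B and COR47, and RD29B. Both counts lie near the share of all genes called.

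RD29B stood apart from the other genes. Its signal was 12.9, 12.7 and 6.57 in gcn5 and 3.73, 5.72 and 0.291 in ada2a, against 10.6, 4.67 and 1.24 in Col-0. The double mutants had 9.14, 15.7 and 9.30 (ada2b-cada2a) and 20.4, 11.8 and 18.6 (ada2b-cspc). Only the difference between ada2b-cspc and Col-0 passed as a rise against Col-0 (1.73 ± 0.62, limma, adjusted p = 0.019), and it did not pass after the length correction (1.15, adjusted p = 0.0823) or without ada2b-cspc replicate 1 or 3 or Col-0 replicate 3 (adjusted p = 0.0535 to 0.138). It turned to -0.54 with the covariate (adjusted p = 0.707). Within the tandem pair the ratio of RD29A to RD29B per kilobase ran from 35.3 to 46.6 in ada2b-cspc libraries and from 57.5 to 60.6 in ada2b-cada2a. It was 61.9 to 141 in ada2b-c and 63.5 to 70.2 in gcn5, against 233 to 2950 in ada2a and 194 to 919 in Col-0. The COR15A to COR15B ratio was steadier, from 1.13 to 1.65 in ada2b-c and 1.33 to 1.76 in gcn5 against 1.5 to 1.89 in Col-0, and reached 2.26 to 3.79 in spc. The COR47 to ERD10 ratio was 2.01 to 2.17 in ada2b-c, 2.54 to 3.07 in ada2b-cada2a and 2.35 to 2.86 in ada2b-cspc. It was 1.31 to 1.61 in gcn5 and 1.03 to 1.28 in Col-0. None of these ratios was adjusted for the length slopes. Transcripts of COR47 and ERD10 are 2320 and 1614 bp long, and those of COR15A and COR15B 1544 and 1584 bp. The part of length in these ratios was not tested.

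The CBF and related DREB genes, which encode factors that bind the CRT/DRE, were low in the genotypes in which most of the 10 genes were low. Whether the falls of the CBF genes and those of the 10 genes are linked was not tested. Of 8 such genes 7 fell in gcn5, 5 in ada2b-c and 6 in each double mutant, with none higher, where of all genes 18.7% were called lower for gcn5, 33.6% for ada2b-c, 32.1% for ada2b-cada2a and 33.3% for ada2b-cspc. Their summed signal was 365 to 475 for gcn5 libraries, 296 to 332 for ada2b-c, 249 to 325 for ada2b-cada2a and 268 to 343 for ada2b-cspc, against 4314 to 4931.5 in Col-0. In ada2b-c CBF2 fell by 7.64 on the log2 scale (adjusted p = 9.06e-10), CBF3 by 7, CBF1 by 5.95 and DDF1, a CBF-related gene of the gibberellin and salt response, by 5.61 (limma). In gcn5 CBF3 fell by 5.26 (adjusted p = 4.5e-09), CBF2 by 4.52, DDF1 by 4.2 and CBF1 by 3.16. These 8 falls passed under every alternative setting run for them. CBF1 averaged 132 ± 51.5 in gcn5, 17.6 ± 4.68 in ada2b-c and 1134 ± 136.5 in Col-0 (SD, n = 3 each). DREB2A and DREB2B, which act in drought and heat, did not pass in ada2b-c.

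In ada2a 4 of the 8 genes rose and none fell, where 19.8% of all genes were called higher and 19.9% lower. In spc 3 rose and 2 fell, where 21.7% of all genes were called higher and 25.7% lower. DDF2 rose by 3.13 in ada2a (adjusted p = 0.000663) and 4.29 in spc (adjusted p = 2.3e-05), DDF1 by 2.33 and 2.61, and CBF4, a drought-induced member, by 1.91 and 2.01 (limma). CBF1 rose by 1.32 in ada2a (adjusted p = 0.0107), while CBF3 fell by 1.48 in spc (adjusted p = 0.0065). With the covariate DDF2 still passed in both, whereas CBF1 in ada2a (0.54, adjusted p = 0.309), DDF1 (adjusted p = 0.0955 in ada2a, 0.1 in spc) and CBF4 (adjusted p = 0.175 and 0.219) did not.

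**Figure D4:**
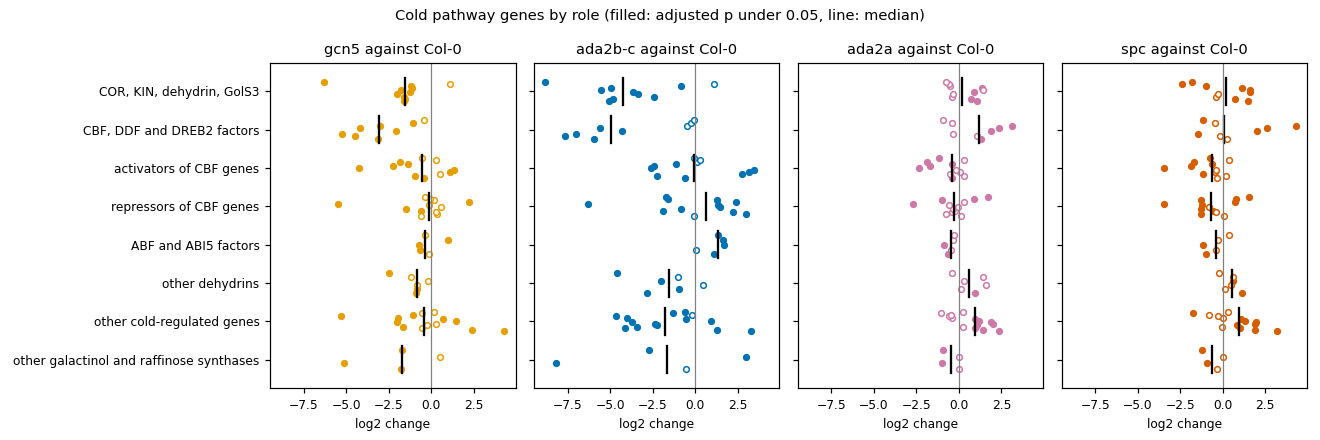
Log2 change against Col-0 of the 10 genes (top row) and of 7 lists of cold-pathway genes, in gcn5, ada2b-c, ada2a and spc. Points are genes, filled where the adjusted p was under 0.05, and lines are list medians, which for the CBF, DDF and DREB2 factors are -3.10 in gcn5, -4.96 in ada2b-c, 1.20 in ada2a and 0.06 in spc.

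The genes known to act on CBF expression moved in both directions in gcn5 and ada2b-c. Of 11 activators 6 fell and 2 rose in gcn5, and 5 fell and 3 rose in ada2b-c, with a median of -0.06 there. In ada2a and in spc 6 of the 11 activators fell and none rose, with medians of -0.38 and -0.62. With the covariate 2 activators fell and 1 rose in each of ada2a and spc. The clock gene CCA1, whose protein binds CBF promoters, fell in all 6 mutants, with log2 changes of -2.32 (ada2a) to -4.26 (gcn5) and -2.57 in ada2b-c (limma, adjusted p = 4.28e-06 to 0.00374). Its fall in ada2a did not pass with the covariate (-1.27, adjusted p = 0.121). The calmodulin-binding activators CAMTA3, CAMTA2 and CAMTA1 were the members that rose in ada2b-c, by 3.43, 3.17 and 2.77, sizes that were 1.43, 0.72 and 0.72 after the length correction, and CAMTA1 did not pass with the covariate (adjusted p = 0.166). Of 12 repressors 5 fell and 6 rose in ada2b-c, 3 fell and 1 rose in gcn5, 2 fell and 2 rose in ada2a, and 6 fell and 3 rose in spc. Of all genes 33.6% were called lower and 32.4% higher in ada2b-c, 18.7% and 15.6% in gcn5, 19.9% and 19.8% in ada2a, and 25.7% and 21.7% in spc. With the covariate the counts of repressors were 4 lower and 2 higher in ada2b-c and 1 lower and 1 higher in spc. PRR9, a clock repressor of CBF genes, fell in all 6 mutants, with log2 changes of -2.70 (ada2a) to -6.39 (ada2b-cada2a), and passed under every alternative. TOC1, another clock repressor, rose by 2.20 in gcn5 and 2.41 in ada2b-c (0.89 after the correction). Of 5 ABF and ABI5 factors of abscisic acid signalling 4 rose in ada2b-c, led by ABF3 (1.67, adjusted p = 2.33e-06) and ABF4 (1.63), while with the covariate 1 of 5 passed, ABF4 (0.74, adjusted p = 0.0306).

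Other cold-induced genes fell with the 10 in part. Of all genes 33.6% were called lower in ada2b-c and 18.7% in gcn5. Of 7 other dehydrin genes, 6 of which were tested, 4 fell in ada2b-c and 3 in gcn5. In ada2b-c they were AT4G38410 (-4.60, adjusted p = 1.11e-06), ERD14 (-2.84, adjusted p = 8.97e-09), HIRD11 (-2.01) and RAB18 (-0.98), of which after the length correction HIRD11 stood at 0.15 (adjusted p = 0.581) and RAB18 at -0.25 (adjusted p = 0.125). In ada2a 1 dehydrin gene rose and in spc 2 did, where 19.8% and 21.7% of all genes were called higher. ERD14 rose in both, by 0.93 and 1.16 (limma), which with the covariate did not pass (adjusted p = 0.302 and 0.204). Among 4 galactinol and raffinose synthases other than GolS3, GolS2 fell by 8.20 in ada2b-c (adjusted p = 2.11e-13) and 5.14 in gcn5 (adjusted p = 1.21e-09). GolS2 averaged 50.7 ± 22.9 in gcn5, 5.04 ± 1.75 in ada2b-c and 1719.7 ± 110.8 in Col-0 (SD, n = 3 each), and its transcript is 82.1% identical to that of GolS3 over 976 aligned bp. RS5, a raffinose synthase, fell by 2.71 in ada2b-c, and GolS4 rose by 2.96 (adjusted p = 0.000194), a rise that did not pass with the covariate (2.29, adjusted p = 0.16).

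Of 14 further cold-regulated genes 10 fell and 3 rose in ada2b-c, and 5 fell and 4 rose in gcn5, while 8 rose in ada2a with none lower, and 8 rose and 1 fell in spc. Of all genes 33.6% were called lower in ada2b-c and 18.7% in gcn5, and 19.8% higher in ada2a and 21.7% in spc. With the covariate 6 of the 14 fell in ada2b-c, 3 rose in ada2a and 2 rose in spc. The falls in ada2b-c included ELIP2 (-4.64), COR413-PM1 (-4.10, adjusted p = 2.23e-11), ELIP1 (-4.03) and RCI2B (-3.74), which did not pass with the covariate (-0.72, adjusted p = 0.407). COR413-PM1 encodes a cold-induced membrane protein, and averaged 1866 ± 71.6 in ada2b-c and 32428 ± 6651 in Col-0 (SD, n = 3 each). COR27, COR28 and GRP7, which are genes under strong clock control, rose in all 6 mutants, against most of the list in ada2b-c. COR27 averaged 10763.5 ± 3576 in gcn5 and 5204 ± 179 in ada2b-c, against 550.3 ± 153 in Col-0 (SD, n = 3 each). Its lowest mutant mean was 2809 ± 683 in ada2a, and the 6 log2 rises were 2.36 to 4.27 (limma, adjusted p = 3.19e-10 to 2e-05). COR27 and COR28 passed under every alternative, and GRP7 did so except in ada2a and spc with the covariate (adjusted p = 0.0847 and 0.0993). In ada2a the highest rises beside COR27 were RCI2A (1.98) and RCI2B (1.90), which encode small membrane peptides, and after the length correction these were 0.49 and 0.37 (adjusted p = 0.00653 and 0.388).

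Across the 21 libraries, 8 of the 10 genes followed the mean profile of the other members closely, with Pearson correlations of 0.91 (KIN1 and KIN2) to 0.98 (ERD10), while RD29A had 0.52 and RD29B -0.72. The 5 genes outside the group most like its mean profile were AT3G12345 (0.989), LHCB2.3 (0.988), LHCB3, LHCA2 and AT4G32460 (0.987 each), and the LHC genes encode light-harvesting chlorophyll-binding proteins. LHCB2.3 averaged 134 in ada2b-c, 2440.5 in gcn5 and 54059.9 in Col-0. The points of these correlations share genotype and length slope, and 2089 of 18550 genes compared (11.3%) had a correlation over 0.9, so a close match was common.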

How the data were processed

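Total RNA of 21 libraries was sequenced as paired 150-bp reads, per the labels. The authors deposited 1 table of gene signal, which is not whole numbers and may be counts rescaled by edgeR, which the labels do not state. Signal summed to 27411448 to 58700421 per library, which is not a depth. The submitters' processing notes name bcl2fastq, HISAT2, edgeR and TAIR10. No counting program, strand setting or version was named.

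Values under 1e-06 were set to 0. Genes with a mean of at least 1 (23290 of 32548) were fitted as log2(signal + 1) by limma 3.58.1 (R 4.3.3), giving each genotype its mean over all libraries, with a variance trend. Adding 1 understates changes of low genes. P-values were adjusted by the Benjamini-Hochberg method over all genes within each of 11 comparisons and called under 0.05. The length correction is a natural spline (5 df) in transcript length and in GC content, estimated from 18559 genes whose mean was at least 30. The fit was tested on simulated data. Transcripts, promoters and lengths came from RefSeq TAIR10.1, and transcripts were compared with BLAST 2.17.0. Figures were drawn with matplotlib 3.10.9.

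Members and lists were chosen with earlier results of these data known. The text names all members, GCN5, ADA2A and ADA2B, up to 4 called genes of a list with the largest changes, list genes that moved against most of their list, and the 5 genes most alike. GRP7, DREB2A and DREB2B were named outside that rule, after their values were seen. Alternatives were no filter, a mean of at least 30, a pseudocount of 0.1, equal totals, replicate blocks, both length settings, 4 low-slope libraries left out (gcn5 replicate 3, ada2a replicate 3, spc replicate 2 and Col-0 replicate 3), each library left out, only the groups compared, and a change of at least 1. Same-numbered libraries of gcn5, ada2a and Col-0 had residual correlations of 0.16 to 0.66 for every number, and were taken as pairs there. Some libraries of unlike number correlated more. With Col-0 replicate 1 and replicate 2, gcn5 replicate 2 had 0.30 and 0.23, and ada2a replicate 2 had 0.22 and 0.16. Whether these libraries were paired is therefore not known.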

Additional observations from a re-analysis of the deposited data

Results flagged for a closer look

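For 3 gene and genotype combinations the change brought by ada2b-c was called different between backgrounds, by a test of the difference itself (limma, adjusted over 23290 genes, of which 13.3% were called for ada2b-cada2a and 10.7% for ada2b-cspc). So few calls are near the share over all genes and do not set these genes apart. The test was chosen after the data were seen.

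COR15B fell by 3.95 on the log2 scale between ada2b-cada2a and ada2a and by 4.84 between ada2b-c and Col-0, a difference of 0.89 ± 0.27 (adjusted p = 0.0352). It passed under 22 of 31 alternatives, with a range of 0.81 to 1.18 and adjusted p of 2.43e-05 to 0.0847, and did not pass when any ada2b-c or ada2b-cada2a library, ada2a replicate 2, or Col-0 replicate 2 or 3 was left out.

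COR47 fell by 1.37 between ada2b-cada2a and ada2a and by 2.45 between ada2b-c and Col-0, a difference of 1.08 ± 0.34 (adjusted p = 0.0424). It passed under 15 of 31 alternatives, with a range of 0.66 to 1.35 and adjusted p of 0.00321 to 0.129, and did not pass without any 1 library of ada2b-c or ada2b-cada2a, ada2a replicate 2 or 3, Col-0 replicate 1 or 2, or any of 5 libraries of the other genotypes, or with no filter on low values.

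RD29B was called higher in ada2b-cspc than in spc, where it was listed at 0 in every library, so its fitted change of 4.13 depends on the pseudocount. It differed by 1.12 between ada2b-c and Col-0, which did not pass. The difference of 3.01 ± 0.87 passed (adjusted p = 0.0338) and passed under 21 of 30 alternatives, with a range of 1.99 to 6.01 and adjusted p of 0.00318 to 0.195. The lowest value came with the length covariate and the highest with a pseudocount of 0.1. The alternatives under which the difference did not pass included leaving out ada2b-c replicate 2 or 3, spc replicate 2 or 3, ada2b-cspc replicate 1 or 3, or Col-0 replicate 1 or 2. The signal of RD29B was at most 20.4 in any library.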

How the results depend on the processing

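The counts of genes called lower in gcn5, ada2b-c, ada2b-cada2a and ada2b-cspc against Col-0 stayed within 7 to 9 of 10 under every alternative. Counts of higher calls were small and moved often, and the cause was not tested. Under equal totals the median log2 change of all genes was 0.22 (gcn5), 0.42 (ada2b-c), -0.37 (ada2a), -0.33 (spc), 0.35 (ada2b-cada2a) and 0.39 (ada2b-cspc), and 0.73 and 0.67 in the doubles against ada2a and spc, where it was -0.06 to 0 from the signal as deposited, so most genes called as changed under it rose in the 3 genotypes with ada2b-c (5536 lower and 9591 higher of 23216 in ada2b-c) and in gcn5 (2964 and 4907), and fell in ada2a (7145 and 2618) and spc (7389 and 3478). Of the 10 genes 1 was called higher in ada2b-c, 2 higher and 3 lower in ada2a, 3 higher in spc, 1 higher in ada2b-cada2a, and 2 higher in ada2b-cspc against ada2b-c. After the length correction 2 were higher in ada2a, 2 in spc, 0 in ada2b-cspc, 2 in ada2b-cspc against ada2b-c, and 0 in ada2b-cada2a against ada2a. With the length covariate 0 were higher in ada2a, 1 in spc (0 lower), 0 in ada2b-cspc, 5 in ada2b-cspc against ada2b-c, 0 in ada2b-cada2a against ada2a and 0 in ada2b-cspc against spc. Without the 4 low-slope libraries 0 were higher in ada2b-cspc, 4 in ada2b-cspc against ada2b-c and 0 in ada2b-cada2a against ada2a. With a mean of at least 30, which leaves RD29B out, 0 were higher in ada2b-cspc against Col-0 or spc and in ada2b-cada2a against ada2a. With a pseudocount of 0.1, 0 were higher in ada2b-cspc. In fits of only the groups compared 2 were higher and 1 lower in ada2a, 2 higher in spc, and 4 higher and 1 lower in ada2b-cspc against ada2b-c. With a change of at least 1, 2 were higher in ada2a and 0 in ada2b-cspc against ada2b-c. Replicate number as a block over all genotypes gave 2 higher in ada2b-cspc against ada2b-c. The replicate block within gcn5, ada2a and Col-0 changed no call of the 10 genes, and with the length correction it gave 2 higher and 1 lower in ada2a. With each library left out in turn, higher calls ranged from 0 to 1 in ada2b-c, 0 to 5 in ada2a, 3 to 5 in spc, 0 to 1 in ada2b-cada2a, 0 to 1 in ada2b-cspc, 0 to 2 in ada2b-cspc against ada2b-c and 0 to 1 in ada2b-cada2a against ada2a, and lower calls from 0 to 1 in ada2a.

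Among values called before or after the change, those that turned sign were LTI30 in ada2a (-0.13 after the length correction, alone and with the block within 3 genotypes), HIRD11 in ada2b-c (0.15) and RD29A in ada2b-c against gcn5 (-0.52) after that correction. With the covariate they were KIN2 in spc (-0.25), ADA2B in ada2b-c (-2.27, adjusted p = 0.000166), RD29B in ada2b-cspc (-0.54) and RD29B in ada2b-cada2a against ada2a (-1.42). Depth is unknown, so the low values of KIN1, RD29B and GolS3 carry no counting error here, and differences among them were not detectable below the spread between libraries.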
